A study of Mus musculus with 12 samples.

Results

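The 6 genes described here encode enzymes that act on NAD or ATP outside the cell or at its surface: Cd38, Bst1, Entpd1, Entpd3, Nt5e and Enpp1. They were taken from a list of extracellular nucleotide enzymes, and all 6 were found among the 21853 genes of the deposited expression table of mouse whole bone marrow cells. All 6 also passed the filter on low values (FPKM 1 or more in 3 or more of the 12 libraries), as 10994 genes did. FPKM is a count of sequenced fragments scaled for transcript length and for the mapped fragments of the library, so levels can be compared between genes per unit of length.

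The study had 4 groups of 3 libraries from B6 mice. Control mice were not irradiated, and what they were given by gavage is not said in the labels. TBI mice had total body irradiation of 5 Gy of gamma rays at 0.66 Gy per minute and olive oil, 100 µL by gavage, as vehicle. TBI+DEIX mice had the same irradiation and oral DEIX at 25 mg per kg of body weight daily for 14 days. DEIX mice had DEIX without irradiation. The series title names deinoxanthin, a carotenoid. Marrow of irradiated mice was taken on day 14 after irradiation. The labels do not say whether the 3 libraries of a group came from separate animals, so p-values measure the spread between these libraries, which may be technical.

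These enzymes stand in a chain that breaks down nucleotides released by stressed, dying or activated cells. CD38 and BST1 (also called CD157), a pair of related enzymes, split NAD into nicotinamide and ADP-ribose, and CD38 also makes cyclic ADP-ribose, which releases calcium from stores. ENTPD1 (CD39) and ENTPD3 take phosphates off ATP and ADP, ENPP1 cuts ATP into AMP and pyrophosphate, and NT5E (CD73) turns the AMP into adenosine. ATP and ADP act on P2 receptors of blood cells, while adenosine acts on its own receptors and commonly dampens inflammation. In mouse marrow, BST1 is known from stromal and myeloid cells, ENTPD1 from myeloid and lymphoid cells, and CD38 from B-lineage and activated myeloid cells.

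Cd38 and Entpd3 were chosen by their values in TBI+DEIX against TBI, where they were among the genes with the largest rises, and the other 4 were joined to them by function. For all 6, values of TBI+DEIX against TBI and of the DEIX effect in irradiated minus unirradiated mice (the interaction) are therefore a description with no test. The group means in DEIX against control come from libraries that had no part in this choice, but its tests use a spread shared by all 12 libraries. The members and lists were also chosen with earlier results of these data known. TBI against control shares its TBI libraries with the contrast that led to the choice, and its tests are given with that limit. All comparisons share control or TBI libraries with another one.

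TBI+DEIX replicate 1 stood apart from the other libraries and enters several results below. Its log2 values had a correlation of 0.938 with the mean of its group over the tested genes, against 0.971 to 0.995 for the other 11 libraries. It had the lowest summed FPKM, 493683, against 549951 to 848843 in the others. It was also the shallowest, since 1 read was worth 2.14 times the FPKM of 1 read in control replicate 1, against 0.876 to 1.89 times in the other 10. Total reads are unknown, and low levels are the least precise in the shallowest libraries.

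The genes lie on 4 chromosomes of the GRCm38 mouse genome, by the GENCODE vM21 annotation. Bst1 (chr5:43818885-43843986, plus strand) and Cd38 (chr5:43868553-43912375, plus strand) are neighbours, with 24.6 kb between the end of one and the start of the other. Entpd1 spans chr19:40612366-40741602 on the plus strand. Entpd3 (chr9:120539818-120568327) and Nt5e (chr9:88327197-88372092) are on the plus strand of the same chromosome, far apart. Enpp1 spans chr10:24637914-24712159 on the minus strand.

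In short, Cd38, Bst1 and Entpd3 were higher in every TBI+DEIX library than in any TBI library, and Bst1 alone of the 6 passed the test in DEIX against control, where its mean FPKM was 2.04 times as high. Cd38 and Entpd3 stood highest in the same library, TBI+DEIX replicate 1, in which Bst1, Entpd1, Nt5e and Enpp1 were at the lowest of their TBI+DEIX values. No member passed the test in TBI against control.

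**Figure D1:**
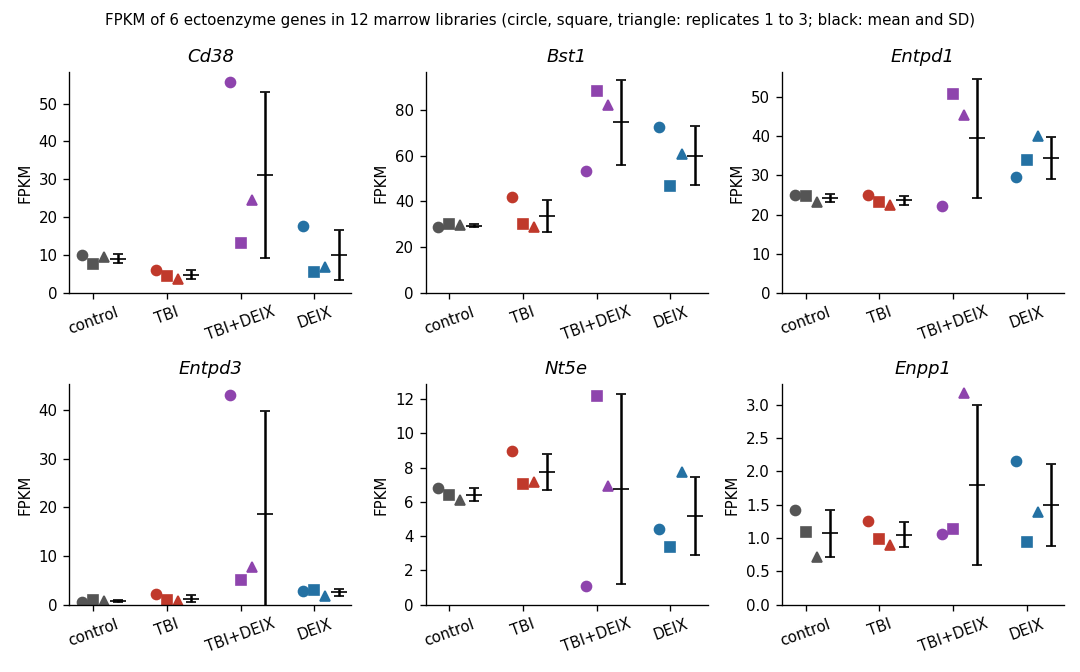
FPKM of each of the 6 genes (vertical axes, linear, from 0) in each library, by group; points are libraries (circle, square and triangle for replicates 1 to 3), and black bars give the group mean and SD, cut at 0 for Entpd3. Cd38 and Entpd3 are highest in TBI+DEIX replicate 1, where Bst1, Entpd1 and Nt5e are lowest within their group.

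Cd38, an NAD-splitting enzyme of the cell surface, was at an FPKM of 9.91, 7.62 and 9.38 in control replicates 1 to 3. TBI libraries had 6.04, 4.44 and 3.67, TBI+DEIX libraries 55.6, 13.2 and 24.6, and DEIX libraries 17.6, 5.49 and 6.87. Every TBI library was below every control library and every TBI+DEIX library was above both, while the DEIX libraries lay on both sides of control, with replicate 1 high. The group means in order were 4.72 ± 1.21 in TBI, 8.97 ± 1.20 in control, 9.98 ± 6.61 in DEIX and 31.2 ± 22.0 in TBI+DEIX (SD, n = 3 each). Control and DEIX overlapped, and so did DEIX and TBI+DEIX.

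The mean Cd38 level in TBI was 0.526 times that in control. On the log2(FPKM + 1) scale, on which all differences and standard errors below are given and which understates changes of low genes, the difference was -0.82 (SE 0.47, 95% interval -1.84 to 0.21, adjusted p = 0.392 by limma with Benjamini-Hochberg adjustment over all 10994 tested genes). This did not pass the threshold of an adjusted p under 0.05. With only the control and TBI libraries in the fit the adjusted p was 0.0168, within a range of 0.0168 to 0.646 over 20 other settings.

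Against TBI, Cd38 in TBI+DEIX was 6.60 times as high by the means, and 4.01 times without TBI+DEIX replicate 1. The log2 difference was 2.28 (SE 0.47), and 1.76 without that library. Against control the mean of TBI+DEIX was 3.47 times as high, and 2.11 times without that library. In unirradiated mice the difference of DEIX from control was -0.01 (SE 0.47, 95% interval -1.04 to 1.01, limma adjusted p = 0.989), although the mean FPKM was slightly higher in DEIX, since replicate 1 lifts a mean of FPKM more than a mean of logs. Without DEIX replicate 1 the log2 difference was -0.47, and without DEIX replicate 2 it was 0.29.

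Bst1, the paralogue next to Cd38, was far steadier within groups. Control libraries had an FPKM of 28.6, 30.0 and 29.6, TBI libraries 41.9, 30.3 and 29.0, TBI+DEIX libraries 53.6, 88.2 and 82.4, and DEIX libraries 72.8, 46.7 and 60.8. All 6 libraries of mice given DEIX were above all 6 libraries of mice not given it. The means ran from 29.4 ± 0.696 in control and 33.7 ± 7.09 in TBI, which overlapped, to 60.1 ± 13.1 in DEIX and 74.7 ± 18.6 in TBI+DEIX, which overlapped as well (SD, n = 3 each).

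In DEIX against control, Bst1 rose by 0.98 on the log2 scale (SE 0.21, 95% interval 0.52 to 1.445, limma adjusted p = 0.0222), higher in 3 of 3 libraries. It was the 1 member of 6 called in this comparison, in which 4.52% of all tested genes were called higher and 2.72% lower. The call was lost without control replicate 1, 2 or 3 (adjusted p = 0.0797, 0.0852 and 0.0789) and without DEIX replicate 1 or 3 (0.104 and 0.0805), with a log2 difference between 0.84 and 1.00 in these 5 fits. It held in the other 15 settings, and without TBI+DEIX replicate 1, which shares in the estimate of spread, the adjusted p was 0.00378. TBI left Bst1 at 0.17 above control on the log2 scale (SE 0.21, 95% interval -0.29 to 0.63, limma adjusted p = 0.718).

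In TBI+DEIX the mean Bst1 level was 2.22 times that in TBI, and 2.53 times without TBI+DEIX replicate 1. The log2 difference was 1.11 (SE 0.21). The interaction was 0.13 for Bst1 (SE 0.30) and 2.30 for Cd38 (SE 0.66), both given as values only.

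An exon of Bst1 overlaps the 5′ end of Fbxl5 on the other strand, a gene for a ubiquitin ligase subunit that senses iron. They share 98 bases of exon, 2.95% of the exon bases of Bst1. The library kit keeps strand, but whether the authors' counting used it is not given in the sources used here, so reads in those bases cannot be told apart. Fbxl5 was looked at after its values were seen. Its FPKM was 67.8, 69.7 and 71.3 in control, 88.5, 68.6 and 63.1 in TBI, 168, 174 and 178 in TBI+DEIX, and 165, 137 and 154 in DEIX. It rose in DEIX against control by 1.11 (limma adjusted p = 0.00231) and in TBI+DEIX against TBI by 1.24 (adjusted p = 0.00411, 0.144 with only those 2 groups in the fit). Over the 12 libraries the log2 values of Fbxl5 and Bst1 had a Pearson r of 0.953. Within 500 kb of Bst1 and Cd38, Fbxl5 was the 1 of 4 other tested genes that was called in either comparison.

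Cd38 and Bst1 together came to an FPKM of 101.5 to 109.2 in the TBI+DEIX libraries. The share of Cd38 in this sum was 50.9% in TBI+DEIX replicate 1, 13% in replicate 2 and 23.0% in replicate 3. It was 20.3% to 25.7% in control, 11.2% to 12.8% in TBI and 10.1% to 19.4% in DEIX. On the FPKM scale the summed level of the pair was thus alike in the 3 TBI+DEIX libraries while its makeup was not. The summed FPKM of all genes was 493683, 595094 and 848843 in TBI+DEIX replicates 1 to 3, so this likeness depends on the scaling.

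Entpd1 and Entpd3 form the ATP- and ADP-degrading pair, and they were at very different levels in control marrow. The promoter sequences of these 2 genes are shown because the genes encode like enzymes and yet stood highest in different TBI+DEIX libraries. Each run is the 250 bases before a RefSeq transcript start (GRCm38.p6), written 5′ to 3′ on the strand of the gene. Entpd3 is chr9:120539568-120539817, plus strand, upstream of the gene. Entpd1 is chr19:40659520-40659769, plus strand, before an inner start and in an intron of the longer transcripts. Capitals mark motifs found.
Entpd3: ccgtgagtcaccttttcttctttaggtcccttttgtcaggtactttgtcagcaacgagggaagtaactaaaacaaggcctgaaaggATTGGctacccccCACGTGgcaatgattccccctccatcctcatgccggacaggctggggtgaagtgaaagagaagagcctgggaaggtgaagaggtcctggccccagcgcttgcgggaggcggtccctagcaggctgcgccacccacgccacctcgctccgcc
Entpd1: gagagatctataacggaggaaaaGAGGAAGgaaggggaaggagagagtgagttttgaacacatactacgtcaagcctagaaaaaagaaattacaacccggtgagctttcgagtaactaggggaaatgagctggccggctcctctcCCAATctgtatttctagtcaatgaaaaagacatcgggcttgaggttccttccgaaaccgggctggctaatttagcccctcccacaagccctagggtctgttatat

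The motifs searched on both strands were CACGTG (E-box), GGGCGG (GC box), CCAAT (the CCAAT box), TATAAA (the TATA box), GAGGAAG (an ETS core of the PU.1 type), AGGTCA (a nuclear receptor core) and GATAAG (the GATA site). None overlaps another here. The Entpd3 window holds CACGTG from 151 to 146 bases before the start, which 6.02% of all 32851 RefSeq windows of this length hold, and CCAAT on the minus strand from 164 to 160 bases before it, which 33.8% hold. The Entpd1 window holds GAGGAAG from 227 to 221 bases before the start (10.6% of windows) and CCAAT from 105 to 101 (33.8%). GC content was 58.8% for Entpd3 and 47.2% for Entpd1, against a median of 52.4% over all windows. Entpd1 has another RefSeq window, before its outer start (chr19:40612116-40612365), which is not printed because it holds exon bases of Tctn3. That window differs from the inner one, with a GC content of 62.4%, CCAAT once on each strand and no GAGGAAG. These are matches of letters, and 5 of the 6 genes matched the RefSeq table.

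Entpd3 was barely detected in control, at an FPKM of 0.601, 0.898 and 0.824. TBI libraries had 2.14, 0.971 and 0.688, TBI+DEIX libraries 43.0, 5.04 and 7.75, and DEIX libraries 2.83, 3.04 and 1.69. All TBI+DEIX libraries were above all 9 others, and replicate 1 was 8.53 times the lowest of its group. The gene was at an FPKM of 1 or more in 7 of 12 libraries, all 6 with DEIX and 1 TBI library. Its mean ran in the order control 0.774 ± 0.155, TBI 1.27 ± 0.772, DEIX 2.52 ± 0.728 and TBI+DEIX 18.6 ± 21.2 (SD, n = 3 each), with overlap between control and TBI and between TBI and DEIX.

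By the means, Entpd3 in TBI+DEIX was 14.7 times the TBI level, and 5.04 times without replicate 1. The log2 difference was 2.6 (SE 0.57), and 1.73 without that library. In unirradiated mice the mean in DEIX was 3.25 times that in control, with no overlap between the groups. The log2 difference there was 0.97 (SE 0.57, 95% interval -0.28 to 2.22, limma adjusted p = 0.323) and did not pass the test in the fit of all 4 groups. It passed with only the control and DEIX libraries in the fit (adjusted p = 0.00731) and without TBI+DEIX replicate 1 (0.0183), whose own spread from its group enters the shared estimate. No control library reached an FPKM of 1, so Entpd3 entered the test only through libraries of the other groups, and these p-values are no support for a rise. In TBI against control the difference was 0.31 (SE 0.57, 95% interval -0.95 to 1.56, limma adjusted p = 0.827).

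Entpd1, the abundant member of the pair, had an FPKM of 25.0, 24.6 and 23.1 in control and 25.0, 23.2 and 22.6 in TBI. It had 22.2, 50.9 and 45.4 in TBI+DEIX and 29.5, 34.0 and 40.0 in DEIX. All DEIX libraries were above all control libraries, and TBI+DEIX replicates 2 and 3 were the highest of the 12, but replicate 1 was the lowest of the 12. Means were 23.6 ± 1.26 in TBI and 24.2 ± 0.983 in control, which overlapped, then 34.5 ± 5.28 in DEIX and 39.5 ± 15.2 in TBI+DEIX, which overlapped too (SD, n = 3 each).

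The mean of Entpd1 in DEIX was 1.42 times that in control, a log2 difference of 0.48 (SE 0.24, 95% interval -0.05 to 1.01, limma adjusted p = 0.249) that did not pass the test. As for Entpd3, it passed with only the compared groups in the fit (adjusted p = 0.0253) and without TBI+DEIX replicate 1 (0.0112). In TBI+DEIX the mean was 1.67 times that in TBI and 2.04 times without replicate 1, with log2 differences of 0.64 (SE 0.24) and 1.00. TBI and control differed by -0.04 (SE 0.24, 95% interval -0.57 to 0.49, limma adjusted p = 0.951).

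The sum of Entpd1 and Entpd3 was 65.15, 55.9 and 53.2 in TBI+DEIX replicates 1 to 3. Entpd3 made up 65.9% of it in replicate 1, against 9.0% in replicate 2 and 14.6% in replicate 3. Its share was 2.35% to 3.51% in control, 2.96% to 7.9% in TBI and 4.04% to 8.76% in DEIX. In 11 of the 12 libraries Entpd1 was thus the more abundant of the pair per unit of length, and in TBI+DEIX replicate 1 it was Entpd3.

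Nt5e, which makes adenosine from AMP, differed widely between the TBI+DEIX libraries. It was at an FPKM of 6.83, 6.39 and 6.09 in control, 8.96, 7.06 and 7.19 in TBI, 1.12, 12.2 and 6.95 in TBI+DEIX, and 4.41, 3.38 and 7.72 in DEIX. The TBI+DEIX group held both the lowest and the highest of the 12 values, 10.9 times apart. Group means, in order, were 5.17 ± 2.27 in DEIX, 6.44 ± 0.375 in control, 6.76 ± 5.55 in TBI+DEIX and 7.74 ± 1.06 in TBI (SD, n = 3 each), and each neighbour in that order overlapped the next.

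All TBI libraries of Nt5e were above all control libraries, but the log2 difference of 0.23 (SE 0.51, 95% interval -0.90 to 1.36, limma adjusted p = 0.858) did not pass the test. DEIX against control gave -0.33 (SE 0.51, 95% interval -1.46 to 0.80, limma adjusted p = 0.738). TBI+DEIX against TBI gave -0.52 (SE 0.51), which turned to 0.24 without TBI+DEIX replicate 1, so the direction rests on that library.

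Enpp1, which makes AMP and pyrophosphate from ATP, was near the filter on low values throughout. Its FPKM was 1.41, 1.09 and 0.715 in control, 1.26, 0.991 and 0.899 in TBI, 1.07, 1.14 and 3.17 in TBI+DEIX, and 2.16, 0.936 and 1.39 in DEIX, and 8 of 12 libraries were at 1 or more. TBI+DEIX replicate 3 and DEIX replicate 1 were the highest, and the groups overlapped in every comparison. The means, 1.05 ± 0.189 in TBI, 1.07 ± 0.350 in control, 1.50 ± 0.619 in DEIX and 1.79 ± 1.20 in TBI+DEIX (SD, n = 3 each), did not differ beyond their spread. Log2 differences were -0.005 in TBI against control (95% interval -0.59 to 0.58, limma adjusted p = 0.995), 0.25 in DEIX against control (-0.33 to 0.84, adjusted p = 0.603) and 0.37 in TBI+DEIX against TBI (SE 0.27). The last was 0.04 without TBI+DEIX replicate 3, so it rests on that library.

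**Figure D2:**
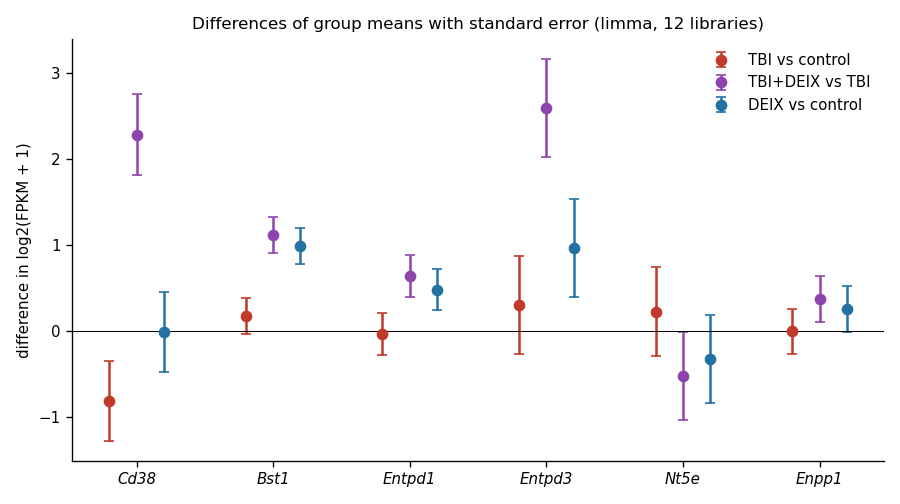
Differences of group means on the log2(FPKM + 1) scale (vertical axis) for the 6 genes in 3 comparisons, each point with its standard error from limma over 12 libraries (n = 3 a group). Cd38 and Entpd3 have the highest TBI+DEIX against TBI values, 2.28 and 2.6, while for Bst1 the values with and without irradiation are close, at 1.11 and 0.98.

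Counted over the members, none of 6 was called in TBI against control by limma, and none had an unadjusted p under 0.05. Of all tested genes 0.891% were called higher and 3.1% lower there. Nt5e was higher and Cd38 lower with no overlap between the groups, as were 22.0% and 16.3% of tested genes, a share near the background for 6 genes. In DEIX against control, Bst1, Entpd1 and Entpd3 were higher with no overlap, and none was lower with no overlap. For all tested genes these shares were 23.4% and 17.2%, and nothing is read from the members' count, since Entpd3 passed the low filter only through groups other than control. In TBI+DEIX against TBI, Cd38, Bst1 and Entpd3 were higher with no overlap and none was lower. For all tested genes these shares were 14.5% and 12.7%, and nothing is read from the comparison, since that contrast led to the choice. On the TPM scale the share of all calls that were higher was 9.49% in place of 22.3% in TBI against control, 34.4% in place of 57.9% in TBI+DEIX against TBI and 19.1% in place of 62.4% in DEIX against control. Bst1 kept its call in DEIX against control on that scale, at 0.84 (adjusted p = 0.0375). With each library rescaled to the same median of tested genes (the median scale), the share of calls that were higher was 14.1%, 60.4% and 56.2%.

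Cell-type markers also differed between these libraries. In bulk marrow, fewer cells of a type and less RNA per cell cannot be told apart. In TBI+DEIX replicates 1, 2 and 3, the summed FPKM of 8 markers of maturing neutrophils was 12100, 39090 and 35320, against 16730 to 24430 over the other 9 libraries. For 8 markers of monocytes and macrophages the sums were 682.5, 1889 and 2525, against 1193 to 2245 in the others. In replicate 1, Entpd1 and Nt5e were likewise at the lowest of the 12 libraries, but Bst1, at 53.6, was above all 6 libraries without DEIX. In replicates 2 and 3, with the high neutrophil sums, Bst1 and Entpd1 were at their highest of the 12. Nt5e was at its highest of the 12 in replicate 2, at 12.2, while in replicate 3, at 6.95, it was below every TBI library. In DEIX the neutrophil sum was 19430 to 24430 and in control 16730 to 23870, ranges that overlap although the Bst1 ranges do not. The part of these cells in the differences was not tested.

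B-lineage and red cell markers were also low in TBI+DEIX replicate 1. Its sum of 8 B-lineage markers was 5.585, against 137.4 and 63.06 in replicates 2 and 3, 22.21 to 262.7 in TBI, 57.14 to 88.36 in DEIX and 346.8 to 429.1 in control. The part of B-lineage cells, which are known to carry Cd38, in the Cd38 values was not tested. The sums of TBI+DEIX replicate 1 were also the lowest of the 12 for plasma cells (6 markers, 240.6), T and NK cells (7 of 8 markers in the table, 51.67), dendritic cells (6 markers, 18.49) and erythroid cells (7 markers, 174.6). For eosinophils, basophils and mast cells (7 markers) it had 124.3, against 96.41 to 272.4 over the others.

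Stroma, bone and endothelium (8 markers) gave sums of 12.68 to 37.65 over all 12 libraries, with 24.22 in TBI+DEIX replicate 1. Lepr and Sp7, which define marrow stroma and bone-forming cells, were under an FPKM of 1 in all 12, and Sp7 and Bglap were at 0 in some. Ly6g, a defining marker of neutrophils, was at 56.99 in TBI+DEIX replicate 1 and at 266 to 787 in the other 11 libraries. Markers of neutrophils, monocytes, B-lineage and red cells were detected in every library.

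**Figure D3:**
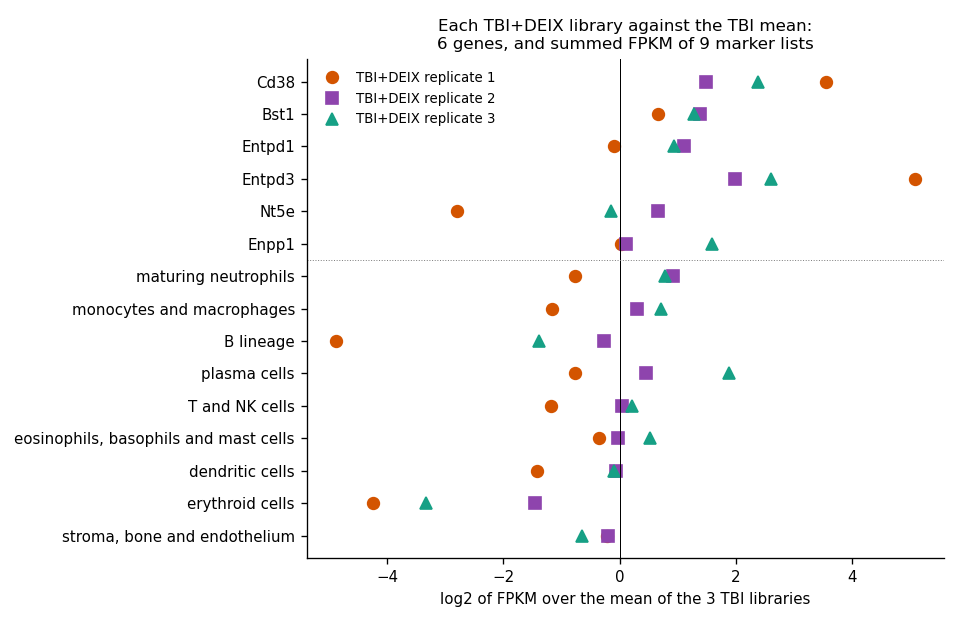
Each TBI+DEIX library as log2 of its FPKM over the mean of the 3 TBI libraries (horizontal axis), for the 6 genes above the dotted line and the summed FPKM of 9 marker lists below it. Replicate 1 (circles) is the farthest right for Cd38 and Entpd3 and the farthest left for maturing neutrophils, monocytes, B-lineage and erythroid cells.

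The genes whose log2 values followed each member most closely over the 12 libraries were ranked by Pearson r among named genes whose FPKM averaged 5 or more. All points share the same libraries, so r is a description. It was not computed without TBI+DEIX replicate 1, where Cd38 and Entpd3 stood highest. For Cd38 these were Icam1 (r = 0.920), a leukocyte adhesion molecule, Trim41 (0.917), Rundc1 (0.909), Zswim8 (0.908) and Atp13a2 (0.895). Icam1 was at 12.8, 8.87 and 9.16 in TBI+DEIX, 7.61 to 8.96 in control and 6.04 to 6.55 in TBI. For Entpd3 they were Fam219a (0.980), Hectd3 (0.976), Akt1 (0.974), a survival kinase, Scrg1 (0.972) and Dcaf5 (0.968).

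For Bst1 the closest were Ppp1r3d (0.989), a glycogen-targeting phosphatase subunit, Lilrb4a (0.988), an inhibitory receptor of myeloid cells, Tarm1 (0.985), Gk (0.984), glycerol kinase, and Lins1 (0.982). Lilrb4a was at 178, 285 and 300 in TBI+DEIX and 183 to 264 in DEIX, against 113 to 166 in the 6 libraries without DEIX. For Entpd1 they were Stxbp3 (0.977) and Snap23 (0.972), which act in vesicle fusion, Stk17b (0.965), Por (0.957) and Arhgap25 (0.956). For Nt5e they were Med20 (0.961), Fam118b (0.955), Tnfsf13b (0.951), Mpp5 (0.937) and Irak2 (0.935).

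For Enpp1 the closest were Hspa5 (0.908), Derl3 (0.901), Xbp1 (0.898) and Txndc5 (0.897), which act in folding and quality control of secreted proteins, and Crot (0.888). Xbp1 is also among the plasma cell markers, whose sum was highest in TBI+DEIX replicate 3 (1509) and DEIX replicate 1 (1121), the libraries with the most Enpp1. Its part in the Enpp1 values was not tested. Among the members, r was 0.856 for Cd38 and Entpd3, 0.820 for Bst1 and Entpd1, 0.561 for Cd38 and Bst1, 0.218 for Entpd1 and Entpd3, and -0.634 for Entpd3 and Nt5e. Cd38 and Entpd3 were chosen by the same contrast and both peaked in TBI+DEIX replicate 1, so nothing is read from their r.

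Around these enzymes, 7 lists of genes of NAD and purine handling held 85 genes, 84 of them in the table and 54 tested. In TBI against control 3 were called higher and 4 lower, where 0.891% and 3.1% of all tested genes were (median log2 difference 0.06, against 0.05 for all tested genes). In TBI+DEIX against TBI 7 were called higher and 4 lower, where 4.69% and 3.41% of all tested genes were (median 0.01, against 0.00). In DEIX against control 6 were called higher and 2 lower, where 4.52% and 2.72% of all tested genes were (median 0.01, against 0.02). For the interaction none of the 54 was called by limma, and over all genes 0.191% were called higher and 0.0091% lower. An unadjusted p under 0.05 was found there for 7 of the 54 and for 825 of all 10994 tested genes. No call of a listed gene turned its direction under any other setting. Leaving out TBI replicate 3 or TBI+DEIX replicate 3, or fitting only the 2 groups, ended all 11 calls of TBI+DEIX against TBI, while leaving out TBI+DEIX replicate 1 ended 1 of them, that of Art4 (log2 difference -1.11). With each library rescaled to the same sum (the TPM scale), 5 of 7, 10 of 11 and 7 of 8 calls were lost in TBI against control, TBI+DEIX against TBI and DEIX against control. Those sums include S100a8, S100a9 and Ngp, whose values are a sign of failed estimates. On the median scale 0 of 7, 0 of 11 and 1 of 8 calls were lost.

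Receptors held the most calls in TBI+DEIX against TBI, 4 higher of 13 tested (18 listed, median log2 difference 0.39). Of all tested genes 4.69% were called higher there. P2ry13, an ADP receptor, was at 33.4, 16.9 and 18.1 in TBI+DEIX against 11.1, 10.5 and 7.21 in TBI, and rose by 1.12 (limma adjusted p = 0.0203). Adora3, an adenosine receptor, was at 6.25, 6.40 and 7.92 against 3.64, 2.79 and 2.12, and rose by 1.04 (adjusted p = 0.0170). P2ry12, the platelet and microglial ADP receptor, rose by 0.94 (0.0199), and P2rx4, an ATP-gated channel, by 0.51 (0.0354). On the TPM scale only Adora3 of these 4 kept its call, and with only the compared groups in the fit none did. Among the receptors P2ry13, P2ry1 and P2rx4 had the highest mean levels over the 12 libraries, at 15.6, 10.98 and 9.54.

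In unirradiated mice 2 of these receptors were called higher too and 1 other was called lower, with a median over the 13 of 0.45. Of all tested genes 4.52% were called higher and 2.72% lower there. Adora3 was at 5.76, 3.52 and 3.57 in DEIX against 2.05, 1.84 and 1.65 in control, and rose by 0.87 (limma adjusted p = 0.0214). P2ry12 rose by 0.81 (0.0285). P2rx3, an ATP-gated channel known from sensory neurons, fell by 1.39 (0.0073) from 3.15, 2.57 and 2.26 to 0.295, 0.432 and 0.436, and kept its call in the 19 other settings that tested it. No library with DEIX reached an FPKM of 1 for P2rx3, so it passed the low filter only through control and TBI libraries, where it was high. Its p-value and its call in other settings are therefore no support for a fall. In TBI against control, Adora2a fell by 0.59 (0.0356) and P2ry14, a receptor of UDP sugars, by 0.92 (0.0179), and the median of the 13 was -0.09. Of all tested genes 3.1% were called lower there.

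Of the other ectoenzymes, 4 of the 12 in the table were tested, and Acpp, a phosphatase that can turn AMP into adenosine as Nt5e does, was called higher in all 3 comparisons. It was at 15.9, 14.8 and 13.9 in control, 29.6, 24.6 and 21.6 in TBI, 33.0, 35.4 and 36.9 in TBI+DEIX, and 27.1, 26.7 and 28.4 in DEIX. It rose by 0.72 in TBI against control (limma adjusted p = 0.0051), by 0.84 in DEIX against control (0.00395) and by 0.47 in TBI+DEIX against TBI (0.0327). On the TPM scale the adjusted p was 0.0609 in the first and 0.0653 in the second, and no other setting ended those 2 calls. The call in TBI+DEIX against TBI was lost in 8 of 20 other settings, with a limma adjusted p of up to 0.391. Art4, known as a red cell surface protein of the ADP-ribosyltransferase family, fell in TBI+DEIX against TBI by 1.32 (0.0473). The sum of erythroid markers was 174.6 to 1208 in TBI+DEIX and 1334 to 5811 in TBI, and its part in the Art4 values was not tested. Ada, which breaks down adenosine, was not called in any comparison and had a mean level of 21.6.

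Of the other relatives of the members, 5 of 8 were tested, and Entpd5, which acts in the endoplasmic reticulum, rose in TBI against control by 0.55 (limma adjusted p = 0.0140). Entpd5 was the highest of that list (mean FPKM 26.2), before Enpp4 (7.14) and Enpp5 (5.69). Of 7 tested genes of ATP release and nucleoside transport, Slc17a9, which loads ATP into vesicles, rose in TBI by 0.84 (0.0144) and in DEIX against control by 0.74 (0.0216). The nucleoside carrier Slc28a2, the highest of that list at a mean FPKM of 46.5, rose by 0.66 in DEIX against control (0.0441) and by 0.75 in TBI+DEIX against TBI (0.0294). Slc29a1, next at 44.0, was not called.

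Of 13 tested genes of NAD synthesis, 2 were called lower in TBI against control, 2 in TBI+DEIX against TBI and 1 in DEIX against control, where 3.1%, 3.41% and 2.72% of all tested genes were. Kmo was 1 of them in each comparison. Kmo, an enzyme of the kynurenine route from tryptophan to NAD, was at 10.4, 9.92 and 10.1 in control, 4.39, 4.52 and 4.59 in TBI, 2.14, 3.05 and 2.08 in TBI+DEIX, and 5.65, 6.25 and 7.02 in DEIX, with no overlap between any pair of groups. It fell by 1.02 in TBI against control (limma adjusted p = 0.00117), a call kept in all 20 other settings, by 0.61 in DEIX against control (0.0155) and by 0.70 in TBI+DEIX against TBI (0.0169). Kynu, of the same route, fell in TBI by 0.49 (0.0241), but it passed the low filter only through control and DEIX libraries, where it was high, since no TBI or TBI+DEIX library reached an FPKM of 1. Its p-value is therefore no support for a fall, and it is 1 of the 2 calls in TBI against control. Nadk2, the mitochondrial NAD kinase, fell in TBI+DEIX against TBI with a log2 difference of -0.485 (0.0205). The salvage enzyme Nampt, at a mean FPKM of 37.3, and Nadk, the highest of the list at 204.9, were not called in any comparison.

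Of 9 tested genes that use NAD inside the cell, none was called in any comparison by limma, with 1, 5 and 2 at an unadjusted p under 0.05 in TBI against control, TBI+DEIX against TBI and DEIX against control. Among all 10994 tested genes 1988, 2986 and 2718 were under it. Sirt7 (mean FPKM 62.6), Sirt2 (33.1) and Parp1 (31.5) were the highest of them. Of 3 tested channels that answer to the products of CD38, the lysosomal channel Tpcn2 was at 17.8, 16.6 and 18.7 in TBI+DEIX, 13.01, 10.4 and 9.14 in TBI, 14.3, 13.5 and 15.2 in DEIX and 9.06, 9.12 and 8.31 in control. It rose by 0.67 in TBI+DEIX against TBI (limma adjusted p = 0.0170) and by 0.64 in DEIX against control (0.0125). Its relative Tpcn1 fell by 0.58 in TBI+DEIX against TBI (0.0308), and Trpm2, which ADP-ribose opens, was not called (mean FPKM 23.0).

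Calls in DEIX against control and in TBI against control also leaned on single libraries. Leaving out control replicate 2 or 3, or DEIX replicate 1, ended 6 of the 8 calls in DEIX against control, control replicate 1 ended 5 and DEIX replicate 3 ended 4. In TBI against control, of 7 calls, leaving out control replicate 2 or TBI replicate 1 ended 5, control replicate 1 or 3 or TBI replicate 2 ended 4, and TBI replicate 3 ended 2. Without TBI+DEIX replicate 1 all 15 calls of these 2 comparisons held.

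**Figure D4:**
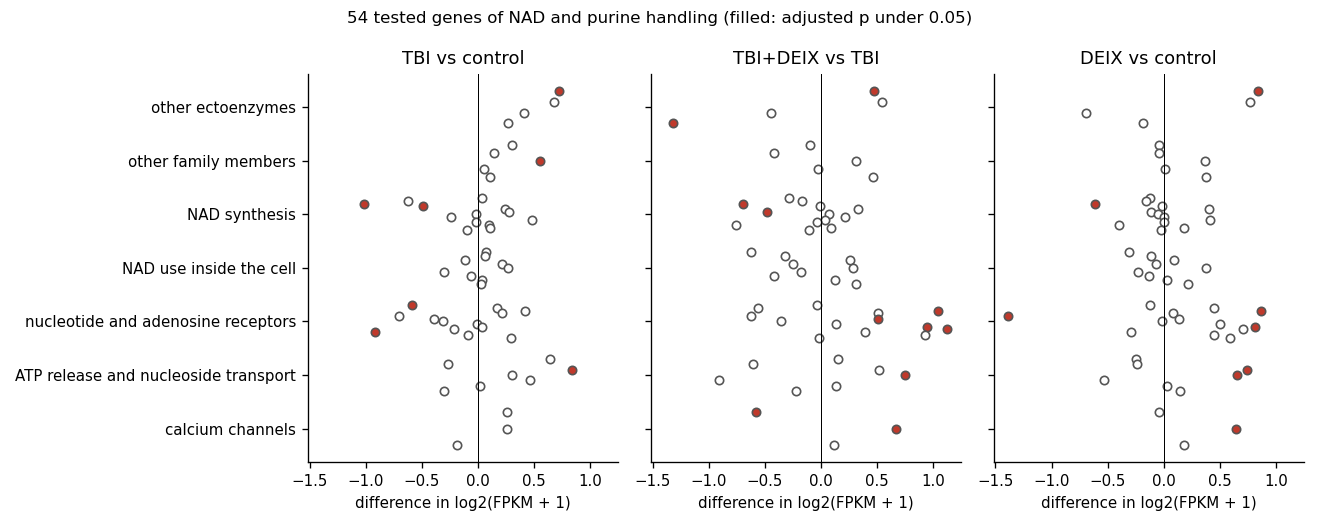
Differences in log2(FPKM + 1) (horizontal axes) of the 54 tested genes of 7 lists (rows) in 3 comparisons, 1 point per gene, filled where limma's adjusted p was under 0.05. In TBI+DEIX against TBI 4 receptors are filled on the right, and for NAD synthesis the filled points lie on the left in all 3.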

How the data were processed

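The deposited table gives 1 FPKM value per gene and library for 12 libraries of mouse whole bone marrow cells, made by the authors from messenger RNA libraries that keep strand, per the labels' protocols. STAR 2.6, Cufflinks 2.2.1 and the mm10 build are named in the submitters' processing notes, and the annotation and strand setting are not given in the sources used here. The table holds no counts and total reads are unknown. Identifiers were matched to GENCODE vM21. FPKM values were tested as log2(FPKM + 1) for the 10994 genes with FPKM 1 or more in 3 or more libraries, with limma 3.58.1 in R 4.3.3 (mean-variance trend) in 1 model of 4 group means, with 8 residual degrees of freedom. The threshold for a call was 0.05 on p-values adjusted by Benjamini-Hochberg over all tested genes. The code was tested on simulated data. S100a8, S100a9 and Ngp, listed at 0 in 2, 4 and 5 libraries and very high in others, a sign of failed estimates, stayed in the fit.

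The members and gene lists were chosen with earlier results of these data known. Named genes were all members, the called genes of each list (up to 5 per comparison), the 3 of each list with the highest mean, and the 5 most correlated with each member. Alternatives were the pseudocount, the low filter, 2 other scalings, fits of only the compared groups, a replicate block, no trend with robust variances, and leaving out each library.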

Additional observations from a re-analysis of the deposited data

Results flagged for a closer look

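For 3 genes around the ectoenzymes, every TBI+DEIX library lay on 1 side of the TBI mean while every DEIX library lay on the opposite side of the control mean. The share of all tested genes with this pattern was not counted, so nothing is read from the number of genes. P2ry14, a receptor of UDP sugars, was above the TBI mean in 3 of 3 TBI+DEIX libraries and below the control mean in 3 of 3 DEIX libraries. Its DEIX and control libraries overlapped, and the interaction was 0.684 on the log2 scale (limma adjusted p = 0.535). Adora2b, an adenosine receptor of low affinity, was lower in irradiated and higher in unirradiated mice given DEIX, with an interaction of -1.013 (adjusted p = 0.432). Its FPKM was 1.39, 3.15 and 3.85 in TBI+DEIX against 5.69, 4.43 and 3.28 in TBI, and 6.45, 5.42 and 4.86 in DEIX against 3.67, 3.65 and 4.06 in control. Slc29a3, a nucleoside carrier of lysosomes, gave -0.372 (adjusted p = 0.848). The test of the difference did not pass for any of the 3.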

How the results depend on the processing

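Over all tested genes, 439 were called in TBI against control, 891 in TBI+DEIX against TBI, 796 in DEIX against control and 22 for the interaction. On the TPM scale the first 3 counts were 253, 157 and 282, and on the median scale 425, 931 and 685. The median log2 difference of all genes in TBI+DEIX against TBI was -0.118 on the TPM scale and 0.00315 as reported. In DEIX against control it was -0.123 and 0.0162. All counts below are of genes called. With only the compared groups in the fit the first 3 counts were 1417, 0 (limma, with 2015 genes at an unadjusted p under 0.05) and 2057. Without the low filter 690 genes were called in TBI against control and 39 for the interaction, with a mean FPKM of 5 or more 134 and 7, and with a pseudocount of 0.1 the interaction had 11. Leaving out 1 library gave 153 to 1337, 5 to 2836, 146 to 2394 and 4 to 331 calls, the highest each time without TBI+DEIX replicate 1. The lowest were without control replicate 1, TBI replicate 3, control replicate 2 and TBI replicate 2.

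Replicate numbers did not pair the libraries: over 18 same-numbered pairs of different groups the correlation of deviations ran from -0.447 to 0.242, and 2 of 12 libraries correlated best with their own number. With the replicate block 474 genes were called in TBI+DEIX against TBI and 378, 640 and 20 in the others, and Bst1 kept its call in DEIX against control. The block ended 4 of 11 calls of listed genes in TBI+DEIX against TBI (P2rx4, Art4, Acpp and Tpcn1), 1 of 8 in DEIX against control (Slc28a2) and none of 7 in TBI against control.

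Members near no difference changed sign. Enpp1 in TBI against control was 0.005682 with a pseudocount of 0.1, 0.00229 on the TPM scale and -0.1351 to 0.1118 without 1 library. Cd38 in DEIX against control was -0.4725 to 0.2853 without 1 library. The cause of these changes was not tested. The within-group SD was 0.418 in TBI+DEIX, against 0.14 to 0.236 in the other groups on the log2 scale, and the shared model assumes 1 spread. The reads behind each value are unknown.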
